A study of Mus musculus with 3 samples.

Results

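The Prdm genes studied here are 9 mouse genes of the PR-domain zinc finger family, Prdm1, Prdm2, Prdm4, Prdm8, Prdm10, Prdm12, Prdm13, Prdm15 and Prdm16. They were picked by symbol out of the 41388 Ensembl genes in the deposited tables, and all 9 were present. RNA had been sequenced from dorsal root ganglion (DRG) cells of C57BL/6 mouse embryos at 12.5 days post coitum, sorted by flow cytometry for EGFP expressed from a Ret reporter. Ret is the receptor tyrosine kinase of GDNF family ligands, and it marks early mechanoreceptors and later many nociceptors. There was a single group of 3 pooled libraries with no second condition: library D was made from 60 ganglia of 3 embryos, library B from 340 ganglia of 17 embryos and library C from 300 ganglia of 15 embryos, all from lower thoracic to first sacral levels, both sexes and different mothers. All embryos carried the reporter. The sample labels name it as a transgene, Tg(Ret-EGFP)SJ, whereas the series text describes EGFP knocked into a Ret allele in heterozygotes, so it is not known whether the cells had a single working Ret allele.

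PRDM proteins carry a PR domain, a relative of the SET domain of histone methyltransferases, and most add an array of zinc fingers that bind DNA. Many have little or no methyltransferase activity of their own and act by recruiting chromatin enzymes to their target genes. In the somatosensory system the best known member is PRDM12, which is required for the formation of nociceptors. Loss of its function in people causes congenital insensitivity to pain.

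Total counts were 20966139 in D, 18072199 in B and 11666241 in C. All 10 neuron markers stood above 1 TPM in each library, a limit that 28.7% of all genes in the files reached. TPM is counts per gene length, scaled to the same total in every library. Tubb3 led the neuron markers at 12294 ± 4861 TPM (SD, n = 3). Ret stood at 60.9 TPM in D, 26.9 in B and 33.5 in C. The pools were not purely neuronal. All 9 glia and Schwann precursor markers passed 1 TPM in each library, and their summed level was 4817 TPM in D, 3063 in B and 1524 in C. Neuron markers summed to 22819 TPM in D, 36536 in B and 29002 in C, sympathetic markers to 40.5, 169 and 58.4, and mesenchyme markers to 83.0, 23.5 and 20.3 TPM in D, B and C. Summed levels in D, B and C were 360, 2563 and 1298 TPM for erythroid, 23.9, 31.5 and 29.3 for macrophage, 22.9, 22.6 and 6.83 for skeletal muscle and 4.21, 7.07 and 1.68 TPM for endothelium markers. D thus held the highest summed glia and mesenchyme levels and the lowest summed neuron, sympathetic and erythroid levels. Single markers did not all follow these sums on TPM. Of the mesenchyme markers, Col1a2, Col3a1 and Pdgfra were highest in D, and Col1a1, Dcn and Twist1 were lowest there. Of the neuron markers, Tubb3, Stmn2, Gap43, Nefm and Prph were lowest in D, and Nefl lay between B and C. Dcx, Snap25, Elavl4 and Elavl3 were highest in D. Whether gene length has a part in these splits was not tested. What part the marker levels have in any Prdm value was not tested either. Fewer cells of a type and less RNA per cell cannot be told apart in such bulk pools. Counts of each pair of libraries differed far beyond counting error (chi-square per degree of freedom 133 to 318), so each counted as 1 sample.

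The Prdm genes fell into 3 tiers. Prdm4, Prdm2 and Prdm12 had mean levels above 10 TPM, Prdm15, Prdm10 and Prdm16 lay between 1.78 and 2.95 TPM, and Prdm8, Prdm1 and Prdm13 were below 1 TPM in every library. With a gene counted as detected when all 3 libraries reached at least 1 TPM, 5 of the 9 members passed, namely Prdm4, Prdm2, Prdm12, Prdm15 and Prdm10. Over all genes in the files 28.7% passed the same limit. Prdm16 missed it through library C alone. The 9 members together amounted to 81.4 TPM in D, 39.7 in B and 34.9 in C, and Prdm4 held a steady share of that sum, 39.4% in D, 39.9% in B and 40.5% in C. The share of Prdm12 was smallest where the sum was largest, with 15.7% in D, 25.4% in B and 30.9% in C.

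**Figure D1:**
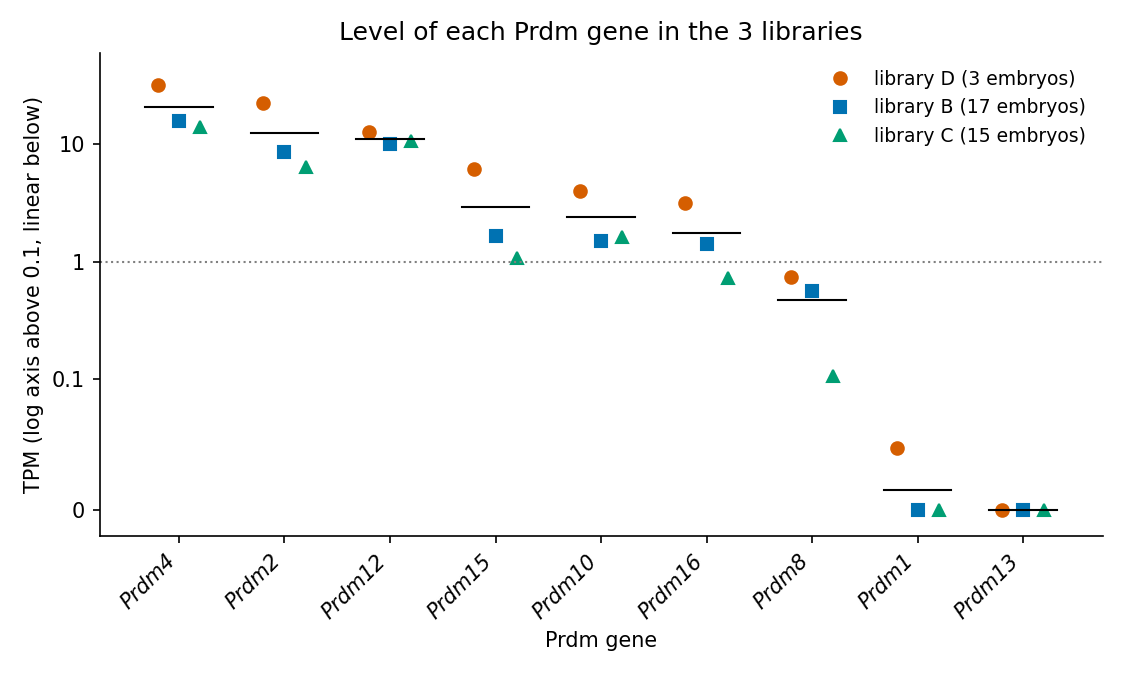
TPM of each of the 9 Prdm genes (vertical axis logarithmic above 0.1 and linear below; bars are means over the 3 libraries, the dotted line is 1 TPM). The 3 libraries of Prdm12 lie between 10.1 and 12.8 TPM, and D is the highest library for each of the 7 genes with a mean above 0.1 TPM.

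The 300-base promoter windows of 3 members are shown because they span the range of levels: Prdm12, the nociceptor factor, Prdm4, the member with the highest mean, and Prdm13, which had no read. Windows run from 250 bases before to 50 after the RefSeq transcript start (GRCm38.p6), on the gene's strand, and capitals mark CG dinucleotides.
Prdm12: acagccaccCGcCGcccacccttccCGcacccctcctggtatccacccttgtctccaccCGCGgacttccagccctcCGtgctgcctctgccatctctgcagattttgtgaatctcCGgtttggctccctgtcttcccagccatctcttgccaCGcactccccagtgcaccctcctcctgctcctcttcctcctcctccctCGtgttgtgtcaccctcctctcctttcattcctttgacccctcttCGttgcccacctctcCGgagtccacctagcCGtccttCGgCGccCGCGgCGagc
Prdm4: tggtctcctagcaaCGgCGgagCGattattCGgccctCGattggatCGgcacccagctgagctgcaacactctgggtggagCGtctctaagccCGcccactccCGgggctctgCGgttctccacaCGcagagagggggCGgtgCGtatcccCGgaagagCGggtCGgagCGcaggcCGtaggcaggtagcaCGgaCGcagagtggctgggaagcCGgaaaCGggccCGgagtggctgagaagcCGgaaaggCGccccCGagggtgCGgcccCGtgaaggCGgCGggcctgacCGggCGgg
Prdm13: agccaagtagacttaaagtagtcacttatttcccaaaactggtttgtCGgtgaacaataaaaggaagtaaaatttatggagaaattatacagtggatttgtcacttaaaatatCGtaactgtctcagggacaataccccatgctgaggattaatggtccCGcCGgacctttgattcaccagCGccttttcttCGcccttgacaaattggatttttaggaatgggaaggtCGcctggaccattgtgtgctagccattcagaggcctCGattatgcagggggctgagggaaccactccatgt
They lie at chr2:31639787-31640086 (plus strand), chr10:85916937-85917236 (minus strand) and chr4:21685914-21686213 (minus strand). The starts of Prdm12 and Prdm13 are the outer ends of those genes in the deposited tables, and that of Prdm4 lies 41 bases from it. The Prdm4 window held 32 CG dinucleotides, the Prdm12 window 17 and the Prdm13 window 8, against a median of 7 over 32851 windows of the same length. The other members with an entry, each taken at its start nearest to the outer end of the gene, had 24 (Prdm16), 23 (Prdm15), 20 (Prdm1) and 12 (Prdm10 and Prdm8). The Prdm1 window, however, lies 69753 bases from that end. The RefSeq table gave windows for 8 of the 9 members, with Prdm2 the exception. The GC box GGGCGG, searched on both strands, occurred 3 times in the Prdm4 window, once in that of Prdm12 and not in that of Prdm13, and 35.7% of all windows held it. The E-box CANNTG, the hexamer of basic helix-loop-helix factors, occurred once in the Prdm4 window and in neither of the others, whereas 72.3% of all windows held at least 1.

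Prdm12 (ENSMUSG00000079466) is a protein-coding gene of 5 exons on the plus strand of chromosome 2 (31640037 to 31655795, GRCm38), annotated with a single transcript of 2471 bases. It had 243 counts in D, 225 in B and 160 in C, or 12.8, 10.1 and 10.8 TPM. The exact 95% Poisson intervals, which cover counting error only, were 11.2 to 14.5 TPM in D, 8.82 to 11.5 in B and 9.19 to 12.6 in C. All 3 intervals overlap, those of D and B only from 11.2 to 11.5 TPM, and such overlap is no test of a difference. The mean was 11.2 ± 1.38 TPM (SD, n = 3). Within each library Prdm12 stood above 66.2% of genes with a count in D, 71.9% in B and 69.5% in C. Its coefficient of variation in TPM, 12.3%, was lower than that of most detected genes, with 6.67% of 11896 such genes below it and a median of 44.5%. On CPM normalized by trimmed mean of M values (TMM), the coefficient was 17.3%, against a median of 43.5%. Of its exon bases 8.09% (200 bases) are shared with Gm13425 on the other strand, which had 4, 6 and 1 counts in D, B and C. Whether the counting used strand is not given in the sources used here.

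Within a library, Prdm12 exceeded the median of the other 8 members by a log2 ratio of 1.80 in D, 2.70 in B and 3.46 in C, with a mean of 2.66 ± 0.83 (SD, n = 3). It was higher in 3 of 3 libraries, and the exact two-sided sign-flip permutation test gave p = 0.25, the smallest value 3 libraries allow. With CPM, which leaves out gene length, the mean was 1.02 ± 0.74. The order of members by mean TPM comes from these same values, so each test of neighbours in it is a description only. Against Prdm15, the next member down in the order, the log2 ratio was 1.04 in D, 2.54 in B and 3.21 in C (2.27 ± 1.11), with an exact sign-flip p = 0.25 and p = 0.375 after Benjamini-Hochberg adjustment over 6 pairs of neighbours. That ratio was 1.56 ± 1.13 with the longest annotated transcript as length, an alternative chosen after seeing the data, and 0.23 ± 1.15 with CPM, so the gap between the upper and the middle tier depended on the length used. Prdm12 was the lower of the pair against Prdm4 in 3 of 3 libraries, at a mean log2 ratio of -0.79 ± 0.48. On TPM only Prdm4 thus stood above Prdm12 in each library, and the place of Prdm12 against Prdm2 depended on the library.

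Prdm4, whose product binds the p75 neurotrophin receptor and recruits the arginine methyltransferase PRMT5 in neural stem cells, was the highest member in each library. Its gene (ENSMUSG00000035529) lies on the minus strand of chromosome 10, from 85891970 to 85916945. It had 969 counts in D, 560 in B and 332 in C, which correspond to 32.1, 15.9 and 14.1 TPM and a mean of 20.7 ± 9.91 TPM (SD, n = 3). D was the highest library, and B and C lay close together. Prdm2 (ENSMUSG00000057637, chromosome 4, 143107391 to 143212995, minus strand) encodes RIZ, a histone H3 lysine 9 methyltransferase first found as a partner of the retinoblastoma protein. It had 1283 counts in D, 578 in B and 286 in C, or 22.4, 8.64 and 6.43 TPM (12.5 ± 8.67). Prdm4 exceeded Prdm2 in 3 of 3 libraries, with a mean log2 ratio of 0.84 ± 0.31 (exact sign-flip p = 0.25, adjusted p = 0.375). With CPM, which leaves out gene length, that ratio was -0.078, since Prdm2 is counted over 7420 bases and Prdm4 over 3917.

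On TPM, Prdm2 and Prdm12 did not differ beyond the spread between libraries, which does not show that their levels are equal. Their log2 ratio, Prdm2 over Prdm12, was 0.81 in D, -0.22 in B and -0.74 in C, with a mean of -0.051 ± 0.79 (exact sign-flip p = 1). Prdm2 was the higher in D, and Prdm12 in B and C. With CPM, which leaves out gene length, the mean log2 ratio was 1.53 ± 0.79.

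Prdm15, Prdm10 and Prdm16 formed the middle tier. Prdm15 (ENSMUSG00000014039, chromosome 16, 97791467 to 97851850, minus strand), a regulator of signalling genes in pluripotent cells, had 499, 157 and 68 counts in D, B and C, or 6.14, 1.65 and 1.08 TPM. Its level in D was 5.71 times that in C, and its coefficient of variation of 93.8% exceeded that of 89.7% of detected genes. Prdm10 (ENSMUSG00000042496, chromosome 9, 31280538 to 31378543, plus strand) had 189, 83 and 59 counts, or 4.04 TPM in D, 1.51 in B and 1.62 in C. Prdm16 (ENSMUSG00000039410, chromosome 4, 154316125 to 154636873, minus strand), known for its roles in brown fat and in neural stem cells, had 229, 119 and 41 counts, or 3.19 TPM in D, 1.42 in B and 0.73 in C. All 3 genes were higher in D than in both B and C, as were 62.8% of the genes tested in D.

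The order within this tier was not settled. Prdm15 over Prdm10 gave a log2 ratio of 0.59 in D, 0.12 in B and -0.55 in C (mean 0.053 ± 0.57, exact sign-flip p = 0.75). Prdm10 exceeded Prdm16 in 3 of 3 libraries, but its mean log2 ratio of 0.49 was no larger than its SD of 0.50 (exact sign-flip p = 0.25, adjusted p = 0.375), and with CPM it was -0.091. With the length of the longest annotated transcript in place of the counted length, Prdm15 over Prdm10 was 0.90 ± 0.60, since Prdm15 is counted over 10547 bases and its longest transcript has 6346.

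Prdm8, Prdm1 and Prdm13 were at or near the limit of what these libraries can show. Prdm8 (ENSMUSG00000035456, chromosome 5, 98180869 to 98187448, plus strand) encodes a repressor that works with the helix-loop-helix protein BHLHE22 in neurons. It had 18 counts in D, 16 in B and 2 in C, or 0.75, 0.57 and 0.11 TPM, and 21.9% of its exon bases are shared with A730035I17Rik, which had no counts. C had the lowest count. Its exact Poisson interval of 0.0129 to 0.386 TPM overlapped that of B, 0.325 to 0.924 TPM, but not that of D, 0.444 to 1.18 TPM. Overlap of intervals is no test of a difference. Bhlhe22 itself, named here as the partner of Prdm8 and chosen after its values were seen, had 4, 1 and 3 counts in D, B and C. Prdm16 exceeded Prdm8 in 3 of 3 libraries, with a mean log2 ratio of 1.71 ± 0.46 (exact sign-flip p = 0.25, adjusted p = 0.375).

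Prdm1 (ENSMUSG00000038151, chromosome 10, 44437177 to 44528501, minus strand), which encodes BLIMP1, a regulator of plasma cells and primordial germ cells, had 2 counts in D and 0 in B and C. Prdm13 (ENSMUSG00000040478, chromosome 4, 21677480 to 21685963, minus strand), which acts downstream of PTF1A in dorsal spinal cord interneurons, had 0 counts in all 3 libraries. With no read seen, up to 3 counts remain possible, equal for Prdm13 to 0.0909 TPM in D, 0.0777 in B and 0.117 in C, and covering counting error only. Ptf1a also had 0 counts in each library. Of the 9 spinal cord progenitor and dorsal interneuron markers, Lhx5, Dbx1, Olig3, Olig2 and Lbx1 had no count in any library and none was detected in every library. The summed level of these markers was 4.28 TPM in D, 3.57 in B and 0.81 in C, nearly all of it Pax3 at 2.77 ± 1.75 TPM (SD, n = 3), a gene that neural crest cells also express.

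Library D, the smallest pool, was then set against B and C. No Prdm gene was called. Over all 15727 genes tested, 0% passed edgeR's quasi-likelihood test at a Benjamini-Hochberg adjusted p of 0.05, a fit with 1 residual degree of freedom that assumes the lone library varies like the others. At an unadjusted p under 0.05, 1 of the 7 members tested passed, against 19.4% of all genes tested, and DESeq2, which called 688 genes (5.89% of those with an adjusted p, and 3.47% higher in D), called no member. Prdm15 had the largest ratio of the members, log2 1.47 ± 0.53 (approximate SE), and was the one that passed unadjusted (edgeR adjusted p = 0.23). Prdm2 and Prdm16 had 0.88 ± 0.47 and 0.87 ± 0.62 (adjusted p = 0.33 and 0.45), Prdm10 0.66 ± 0.57, Prdm8 0.41 ± 1.27 and Prdm4 0.40 ± 0.46. Prdm12 was the only member with a ratio below 0, at -0.42 ± 0.53 (adjusted p = 0.67). Prdm1 and Prdm13 did not pass the filter on low counts.

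The sign of the Prdm12 ratio depended on the scale. On TPM, D was the highest library for each of the 7 members tested, Prdm12 included, as for 62.8% of all genes tested. The median gene had a log2 TPM ratio of 0.71 in D over the mean of B and C, so that the Prdm12 ratio of 0.29 on this scale lay below it, while the other 6 members had ratios of 1.10 to 2.12 and lay above it. On the TMM scale of the edgeR fit, where the median gene stood at -0.017, 6 of the 7 members had ratios above 0, as did 49.5% of all genes, and the members' median was 0.66. The difference between Prdm12 and the other members in D was not tested, since a single library carries it.

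**Figure D2:**
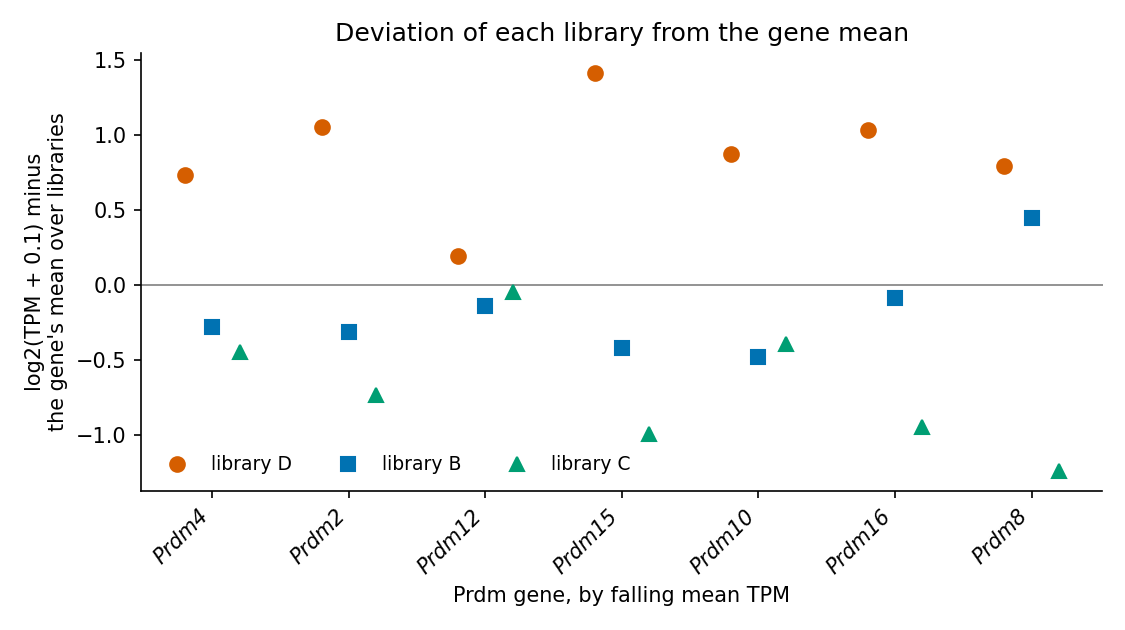
Deviation of each library from the gene's mean of log2(TPM + 0.1) for the 7 Prdm genes with a mean above 0.1 TPM. The deviations of Prdm12 stay within 0.19 of 0, and Prdm15 has the largest one in D, at 1.41.

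Gene length moved with these ratios. Over 14535 genes whose mean count reached 10, counted length and the log2 ratio of D gave a Spearman's rho of 0.44, and transcript GC gave -0.35 over 14462 of them; genes are no independent replicates. The median ratio was -0.82 for 2540 genes of up to 1500 bases, -0.54 for 4034 genes of 1501 to 3000 bases, 0.16 for 4372 genes of 3001 to 5000, 0.48 for 3053 genes of 5001 to 8000 and 0.69 for 1728 longer genes. Prdm12 is the shortest member at 2471 bases, and Prdm16 and Prdm15, at 9321 and 10547 bases, are the longest, so the members' order by ratio nearly followed their order by length. With a smooth trend on length removed per library, Prdm15 was at 0.75, Prdm8 at 0.42, Prdm2 at 0.26, Prdm16 at 0.17, Prdm4 at 0.14, Prdm10 at 0.13 and Prdm12 at -0.061, and the members' median was 0.17 against -0.071 for all genes. Of the 7 members 6 then had ratios above 0, as did 47.4% of all genes. With length and GC removed together, an alternative chosen after seeing the data, Prdm12 stood at 0.49, Prdm10 at -0.071 and Prdm15 at 0.69 (edgeR adjusted p = 0.70, 0.97 and 0.60), and 6 of the 7 members had ratios above 0, against 47% of all genes.

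**Figure D3:**
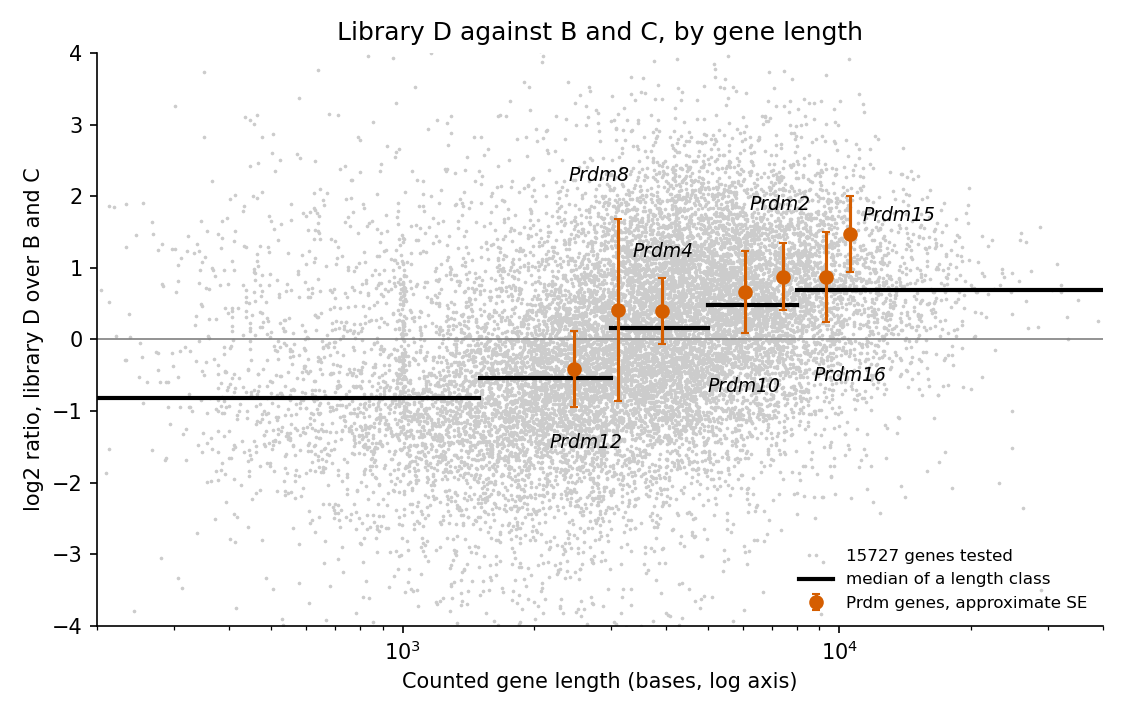
Log2 ratio of library D over B and C (vertical axis) against counted gene length in bases (logarithmic axis) for 15727 genes in grey, with 7 Prdm genes in orange and their approximate SE, and black bars for the median of each length class. Prdm12, at 2471 bases, lies at -0.42 and Prdm15, at 10547 bases, at 1.47, and the bars climb in the same direction; 289 genes lie outside the range drawn.

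In their spread between pools the members ranked from low to high among genes. The edgeR biological coefficient of variation across the 3 libraries, with no second group, was 0.51 over 13182 genes. It was 0.46 for Prdm4, 0.47 for Prdm12, 0.48 for Prdm2, 0.49 for Prdm10, 0.52 for Prdm16 and 0.55 for Prdm15. In the same order, 15.2%, 29.7%, 44.2%, 51.5%, 69.8% and 81.4% of genes had a lower value. Per-gene values are drawn towards the common trend by the fit, so they differ less than the TPM do. Their closeness to the value over all genes is thus no evidence of a like spread.

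Transcripts of the genes listed as chromatin partners of PRDM proteins were found in every library. All 15 listed partner genes were detected in each library, against 28.7% of all genes in the files. Prmt5 stood at 90.5 ± 33.0 TPM (SD, n = 3), and the histone deacetylase genes Hdac3 and Hdac2 at 86.9 ± 23.4 and 68.7 ± 20.2 TPM. In D against B and C, 10 of the 15 had ratios above 0 and 5 below, with a median of 0.20, where 49.5% of all genes lay above 0. In 3 of 3 libraries Prdm4 stood below Prmt5 (log2 ratio -2.16 ± 0.15) and below Ngfr, the gene of the p75 receptor at 160 ± 63.6 TPM (log2 ratio -2.98 ± 0.10; exact sign-flip p = 0.25 for each). Both ratios varied little between libraries. Of the 5 DNA-binding and receptor partners, Ngfr and Skil were detected, and Cebpb averaged 0.41 ± 0.32 TPM. Skil, a SKI family corepressor gene, had 73.4 TPM in D, 6.04 in B and 7.16 in C. Its log2 ratio of D over B and C was 2.77 ± 0.43 (approximate SE), and 2.05 with the length trend removed. Whether it was called depended on the method.

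Of 80 genes in the fixed lists with a mean of 1 TPM or more, Ehmt2, which encodes the H3K9 methyltransferase G9a, had the profile nearest to that of Prdm12 over the 3 libraries. The root mean square difference of their centred log2(TPM + 0.1) was 0.024. Ehmt2 stood at 14.1 TPM in D, 10.8 in B and 11.5 in C, and Prdm12 over Ehmt2 had a log2 ratio of -0.14 in D, -0.095 in B and -0.084 in C. It was lower in 3 of 3 libraries (exact sign-flip p = 0.25). Isl1 and Sox10 followed, each at 0.17. With 3 libraries such a likeness is a description only, and it depended on the scale. On the TMM scale the log2 ratio of D over B and C was -0.37 for Ehmt2 and -0.42 for Prdm12. With the length trend removed these ratios were -0.85 and -0.061.

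Sensory neuron factors surrounded Prdm12 at a wide range of levels. Of 12 listed neurogenesis and nociceptor factors 10 were detected, against 28.7% of all genes in the files. Runx1 and Neurog2 were not, with means of 0.42 and 0.050 TPM. Isl1, a homeodomain factor of sensory neurons, stood at 591 ± 56.9 TPM (SD, n = 3), Pou4f1, which encodes BRN3A, at 343 ± 308 TPM and Neurod1 at 91.0 ± 59.0 TPM. Prdm12 lay below Isl1 by a log2 ratio of -5.71 ± 0.20 and below Neurod1 by -2.78 ± 0.97, in 3 of 3 libraries each (exact sign-flip p = 0.25). It lay above Neurog1 by 1.39 ± 1.05 and above Runx3 by 1.17 ± 0.51 in 3 of 3 libraries each (exact sign-flip p = 0.25), and above Tlx3 in 2 of 3 (0.28 ± 1.41, exact sign-flip p = 1), and below Prrxl1 in 3 of 3 (-2.04 ± 0.74, exact sign-flip p = 0.25). The choice of these 4 was made with their values seen. In D against B and C, 3 of the 11 factors tested had ratios above 0 and 8 below, with a median of -0.72, where 49.5% of all genes lay above 0. None was called, and 5 had an unadjusted p under 0.05, against 19.4% of all genes. Of the 12 nociceptor effector genes 8 were detected, led by Gfra3, the artemin co-receptor, at 230 ± 98.9 TPM, P2rx3, an ATP-gated channel, at 177 ± 95.8 TPM and Gfra2, the neurturin co-receptor, at 150 ± 106 TPM. Scn11a, Trpv1, Mrgprd and Trpa1 were not detected in every library, with means of 0.60, 0.60, 0.50 and 0.18 TPM. The ratios of the effector genes in D were above 0 for 6 of 12, against 49.5% of all genes, with a median of -0.19.

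**Figure D4:**
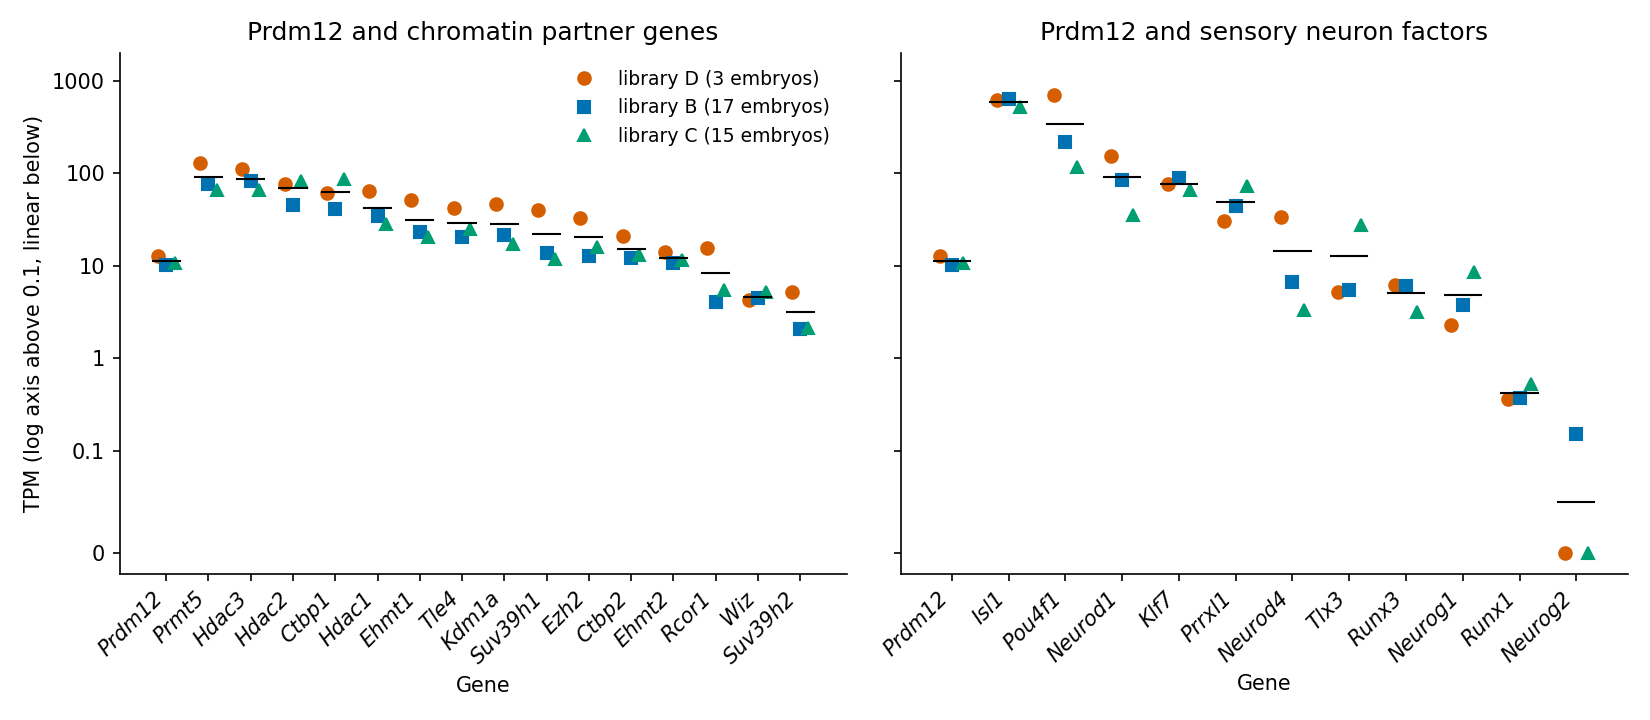
TPM in each library (vertical axis logarithmic above 0.1 and linear below; bars are means) of Prdm12 beside the 15 chromatin partner genes (left) and beside 11 sensory neuron factors (right). Prdm12, at 10.1 to 12.8 TPM, lies close to Ehmt2 on the left and far below Isl1 on the right.

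Of further genes of the family, 5 were low. Prdm9, the gene that positions meiotic recombination, had 1.14 TPM in D, 0.95 in B and 0.43 in C. Mecom, which encodes EVI1, Prdm6 and Prdm11 averaged 0.38 ± 0.12, 0.35 ± 0.32 and 0.31 ± 0.21 TPM (SD, n = 3), and Prdm14, a germ cell and pluripotency factor, had a single count, in B. None of these 5 genes was detected in every library.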

How the data were processed

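RNA of 3 pooled libraries of sorted Ret-EGFP DRG cells was reverse transcribed and amplified with a SMARTer kit, per the labels' protocols. Kits of this kind do not keep the strand. Subread, featureCounts 1.4.5 and GRCm38.p2 are named, without roles, in the submitters' processing notes. No source used here gives the annotation release, strand setting or read filters. The authors deposited, per gene, raw counts, CPM and RPKM. In the deposited tables CPM is the count scaled to the file total, and the deposited RPKM is that CPM per kilobase of gene length. Only the counts were used.

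Symbols matched 40254 of 41388 identifiers. TPM was computed from count and length over all genes. Log2 values used a pseudocount of 0.1 TPM, and ratios of genes were formed within a library and tested by exact sign-flip permutation. For D against the other libraries, edgeR 4.0.16 was used (quasi-likelihood, TMM, filterByExpr) in R 4.3.3, with DESeq2 1.42.0 as an alternative. Approximate standard errors came from the ratio and its F statistic. Trends on length and GC were fitted with mgcv 1.9.3. The fit was tested on simulated counts. Of the planned neighbour pairs, 2 were not formed because Prdm1 and Prdm13 had at most 2 counts.

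The members and lists were chosen with earlier results of these data known. The rule for names takes all 9 members, the other Prdm genes, the 3 genes of each other list with the highest mean TPM, list genes without counts and the 3 profiles nearest to Prdm12. Most marker genes it takes are given as list sums, and some genes it takes are not reported here. Labels do not say that the pools came from separate days, so the spread may be partly technical. Alternatives covered pseudocounts, detection limits, CPM, transcript lengths, normalization, filters and each library left out.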

Additional observations from a re-analysis of the deposited data

How the results depend on the processing

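Of 153 alternative values, 139 were labelled the same. For ratios of genes, and for D ratios with a library left out, this means only a kept sign. Other D ratios also kept their side of the threshold. Counts and the coefficient of variation between pools stayed within 1.5 times. A kept sign can hide a change in size: Prdm12 over Prdm15 went from 2.27 on TPM to 0.23 on CPM. The members detected were 3 at 2 TPM, and 5 to 6 with a library left out. In place of 0 genes called in D, edgeR gave 8 when scaled by the size factors of DESeq2, 1534 without a filter on low counts and 1 with the length trend removed, and DESeq2 gave 688; the cause was not tested, and no Prdm gene was among those called. With CPM in place of TPM, which leaves out gene length, Prdm2 over Prdm12 was 1.53, Prdm12 over the median of the other members 1.02, Prdm12 over Prdm15 0.23, Prdm4 over Prdm2 -0.078 and Prdm10 over Prdm16 -0.091. With a library left out, Prdm2 over Prdm12 ranged from -0.48 to 0.29 (0.035 without B, 0.29 without C) and Prdm15 over Prdm10 from -0.22 to 0.35. The D ratio of Prdm8 was -0.23 against B alone and 1.56 against C alone, and with length and GC removed the D ratio of Prdm12 was 0.49 and that of Prdm10 -0.071. Prdm12 over the median of the other members ranged from 2.25 to 3.08, the neighbour pairs with 1 order in each library from 4 to 5 of 6, and the coefficient of variation between pools from 0.38 to 0.58 with a library left out. Prdm8 in C, Prdm1 and Prdm13 rest on 0 to 2 counts per library, so depth limits what can be said of them. No paired analysis was possible because the libraries form a single group.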
